A study of Mus musculus with 46 samples.

Results

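The 10 genes described here make the products of goblet cells and the mucus layer of the gut: Muc2, Tff3, Clca1, Fcgbp, Zg16, Agr2, Spink4, Retnlb, Spdef and Muc13. They were chosen by symbol from the 45777 gene symbols of each count table, and all 10 were present in all 5 tables and in the 3 single-cell matrices. Goblet cells are secretory cells of the intestinal epithelium that fill granules with MUC2, the gel-forming mucin of the intestine, and release it onto the surface. MUC2 is folded and cross-linked in the endoplasmic reticulum with the help of the protein disulfide isomerase AGR2, heavily O-glycosylated in the Golgi, and unfolds into a net on release. TFF3, CLCA1, FCGBP and ZG16 are secreted with it and sit in the gel, SPDEF is the transcription factor that drives goblet cell maturation, and MUC13 is a membrane-bound mucin of the epithelial surface.

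The study gave male C57BL/6J mice metformin, a biguanide used in type 2 diabetes, or imeglimin, a tetrahydrotriazine related to it in structure, and asked where their actions in the intestine are alike and where they differ. In the acute experiment, colon was taken 6 h after 1 oral dose of 600 mg/kg metformin, 600 mg/kg imeglimin, or control treatment. In the chronic experiment, metformin or imeglimin was given at 3 mg/mL in the drinking water for 4 weeks beside control mice, and the tissues sampled were colon and 3 segments of small intestine (proximal, middle, distal). Each of the 15 bulk RNA-seq groups held 3 libraries, and colon cells of mice treated for 12 weeks were measured with a probe-based single-cell assay on fixed cells. The ages of the mice and what the controls received are not given in the sources used here. All groups share the strain and sex, and the labels name no altered allele and no other agent. The labels do not say that the 3 libraries of a group came from separate animals, and p-values then measure only how far these libraries spread, which may be technical.

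Promoter sequences are shown for the members whose levels ran together across the bulk groups (Muc2, Agr2 and Spdef) and for 1 that ran against them (Fcgbp). RefSeq's promoter table for GRCm38.p6 held 5 of the 10 members. Each line gives the 200 bases before the annotated start, 5′ to 3′, in lower case, with matches to CAGCTG, an E-box of the type bound by the secretory lineage factor ATOH1, in capitals.
Muc2 (GRCm38.p6 chr7:141690140-141690339, plus strand): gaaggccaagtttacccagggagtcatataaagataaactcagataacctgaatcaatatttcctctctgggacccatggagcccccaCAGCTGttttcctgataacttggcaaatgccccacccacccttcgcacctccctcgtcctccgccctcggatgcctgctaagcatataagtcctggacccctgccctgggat
Agr2 (GRCm38.p6 chr12:35992725-35992924, plus strand): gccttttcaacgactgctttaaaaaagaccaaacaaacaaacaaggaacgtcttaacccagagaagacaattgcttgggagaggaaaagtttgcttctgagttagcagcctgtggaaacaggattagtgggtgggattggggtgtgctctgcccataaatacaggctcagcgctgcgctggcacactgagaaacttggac
Spdef (GRCm38.p6 chr17:27728952-27729151, minus strand): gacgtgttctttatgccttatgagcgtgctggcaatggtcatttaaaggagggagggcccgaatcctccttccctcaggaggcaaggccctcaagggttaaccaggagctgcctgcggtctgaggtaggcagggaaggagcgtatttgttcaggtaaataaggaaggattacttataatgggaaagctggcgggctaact
Fcgbp (GRCm38.p6 chr7:28071036-28071235, plus strand): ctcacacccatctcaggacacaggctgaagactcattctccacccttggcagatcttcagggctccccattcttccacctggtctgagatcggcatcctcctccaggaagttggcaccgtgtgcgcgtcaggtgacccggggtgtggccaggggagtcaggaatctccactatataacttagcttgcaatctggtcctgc
Besides the E-box, 3 other motifs were searched on both strands, and none shares its letters with another. The E-box was found in 10.9% of 32851 promoter windows of the same length. The FOXA letters, TGTTTAC, were found in 2.51% of them. The SPDEF letters, CCGGAT, were found in 4.13%. The CDX letters, CAATAAA, were found in 3.26%. Among the 5 members the only match was the E-box of Muc2, which began 112 bases before the start, and no match says only that these letters are absent from the window.

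Tff3, the trefoil peptide whose call with metformin in chronic colon held in every alternative run, is shown as its coding sequence from the GENCODE M21 transcripts of GRCm38. The 246 bases encode 81 residues, and the 7 cysteine codons, whose residues form the disulfide bonds of the trefoil fold and of the dimer, are in capitals.
Tff3: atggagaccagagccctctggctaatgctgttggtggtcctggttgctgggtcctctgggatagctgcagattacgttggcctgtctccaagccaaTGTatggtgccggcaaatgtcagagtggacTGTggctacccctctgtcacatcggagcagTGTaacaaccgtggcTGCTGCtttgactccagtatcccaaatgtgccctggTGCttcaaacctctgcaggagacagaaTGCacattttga
Cysteine made up 8.64% of the TFF3 residues. It made up 11.4% of the 105 residues of RETNLB, the resistin-like bactericidal protein of goblet cells, and 0.571% of the 175 residues of AGR2.

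The libraries held 31606800 to 47324300 counts each. Levels are CPM, read counts scaled to the library's size with TMM factors, a change is a log2 fold change ± SE from edgeR's quasi-likelihood test, and a gene was called at a Benjamini-Hochberg adjusted p under 0.05 over all genes of the table. Small intestinal enterocyte markers summed to 18417 to 85445 CPM in the small intestinal libraries and to 1269 to 2322 CPM in the colon libraries, so the labelled tissues carried their markers. Chronic colon control 3 stood apart with 28479 CPM of pancreatic acinar transcripts, where the other 8 libraries of that table held 199 to 319 CPM. One acute metformin library, replicate 2, held 2521 CPM of smooth muscle markers against 6036 to 9505 CPM in the other 8. Results that change without these libraries are given with their values below. In bulk tissue, fewer goblet cells and less RNA per goblet cell cannot be told apart.

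**Figure D1:**
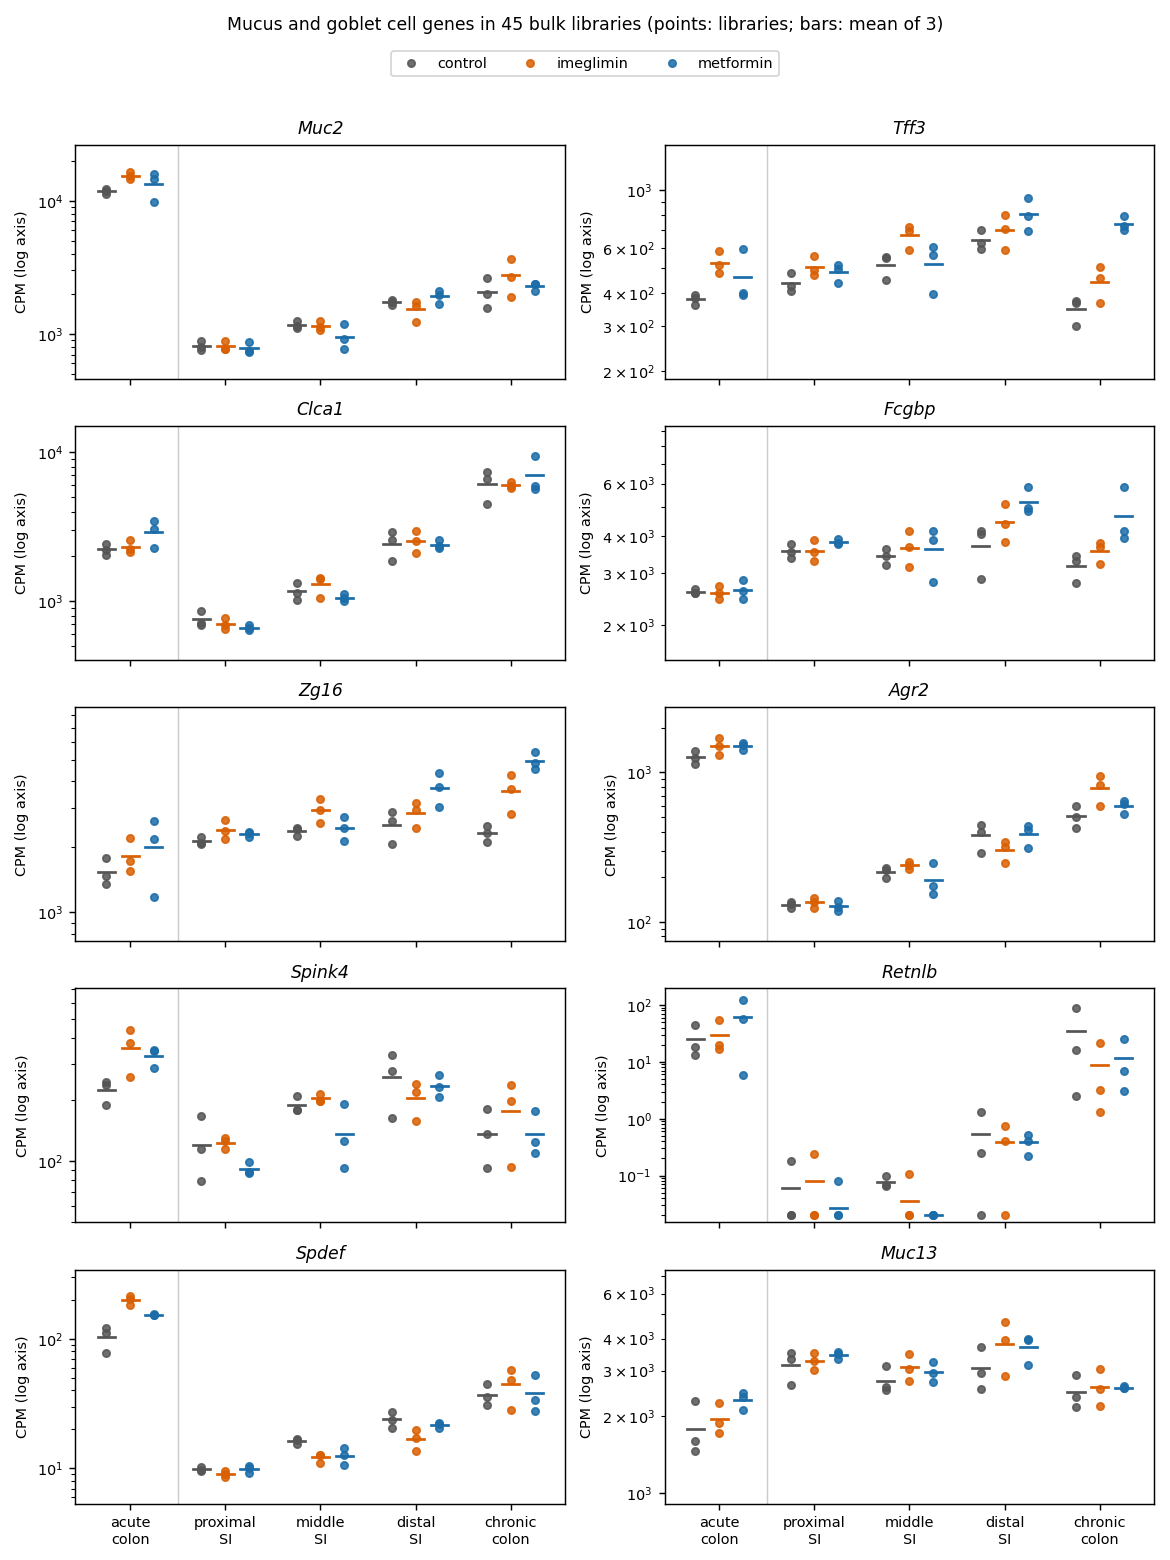
Level of each of the 10 genes in CPM (log axis) in the 45 bulk libraries; points are libraries, horizontal bars the mean of 3, and SI is small intestine. Libraries in which Retnlb was at 0 are drawn at the bottom of its axis. Muc2, Agr2 and Spdef were lowest in proximal small intestine and highest in acute colon, while Tff3, Zg16 and Fcgbp separated from control in chronic colon with metformin.

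In the untreated chronic libraries, the goblet genes followed 3 courses along the gut. Muc2, Clca1, Agr2 and Spdef were higher in colon than in proximal small intestine, and so was Retnlb. Tff3, Fcgbp, Zg16 and Muc13 were lower in colon. Spink4, a secreted protease inhibitor of goblet cells, peaked by its mean in distal small intestine and fell to colon. Of the 10 members, 9 were called between proximal small intestine and colon, where 56.5% of all genes were called. These CPM values come from 1 joint scaling of the 36 chronic libraries.

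Clca1, the chloride channel accessory protein that is cleaved and acts as a protease in the gel, had the steepest course among the well-expressed members. Its controls read 835, 816 and 1010.0 CPM in proximal, 1425, 1236 and 1123 in middle and 1766, 2769 and 2431 in distal segments. The colon controls read 5465, 3671 and 6019. No 2 neighbouring segments overlapped. The log2 change was 0.51 ± 0.19 from proximal to middle (edgeR adjusted p = 0.115), 0.88 ± 0.19 from middle to distal (edgeR adjusted p = 0.00201) and 1.12 ± 0.19 from distal to colon (edgeR adjusted p = 1.84e-05). Without replicate 2 or 3 of every group the step from middle to distal had an edgeR adjusted p of 0.0764 to 0.173.

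Muc2 read 921, 887 and 1028 CPM in proximal, 1186, 1234 and 1364 in middle, 1561, 1723 and 1663 in distal segments. The colon controls read 1276, 2174 and 1642. The 3 small intestinal segments did not overlap, and the colon values spread over the range of middle and distal. From proximal small intestine to colon Muc2 rose by 0.84 ± 0.19 (edgeR adjusted p = 0.000398), and no single neighbouring step was called. Distal small intestine and colon differed by 0.04 ± 0.19 (edgeR adjusted p = 0.881).

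Spdef rose from 11.4 ± 0.417 CPM (SD, n = 3) in proximal small intestine to 30.4 ± 5.92 in colon, a log2 change of 1.41 ± 0.20 (edgeR adjusted p = 9.58e-07). Agr2 rose from 152 ± 6.95 to 416 ± 69.7 CPM, by 1.45 ± 0.18 (edgeR adjusted p = 5.15e-08). Agr2 was the only member called at both steps within the small intestine, 0.62 ± 0.17 from proximal to middle (edgeR adjusted p = 0.0262) and 0.62 ± 0.17 from middle to distal (edgeR adjusted p = 0.0183). The first of these was lost without any 1 replicate number (edgeR adjusted p 0.05 to 0.256) or with the 12 controls alone (0.0699), and the second without replicate 1 or 2 (edgeR adjusted p 0.0869 to 0.251). From proximal to middle, Spdef missed the threshold in the main fit (edgeR adjusted p = 0.055). It passed with the replicate block (edgeR adjusted p = 0.0487), with the 12 controls alone (edgeR adjusted p = 0.0381) and in DESeq2 (adjusted p = 0.0359). It did not pass with any 1 replicate number left out. From distal to colon Spdef passed with the 12 controls alone (edgeR adjusted p = 0.0298, main fit 0.0893).

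Retnlb read 0, 0 and 0.214 CPM in proximal, 0.0738, 0.0721 and 0.106 in middle and 1.26, 0.242 and 0 in distal segments. The colon controls read 2.08, 13.2 and 71.7. Every colon control lay above every small intestinal one, and the 3 colon values were far apart. Between distal small intestine and colon the edgeR adjusted p was 0.000869, and without replicate 3 it was 0.0849. Retnlb was too low to be tested between drug and control in proximal and middle small intestine.

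Tff3 went the other way, from 563, 667 and 595 CPM in distal small intestine to 302, 246 and 306 in colon. The change of -1.10 ± 0.15 (edgeR adjusted p = 6.54e-07) held without each replicate number in turn, and no library of 1 segment reached the other. Spink4 changed by -1.14 ± 0.30 over the same step (edgeR adjusted p = 0.00284, without replicate 1 0.223). Muc13, whose gene overlaps the antisense gene Gm15657 so that their reads may not be told apart, fell by 0.53 ± 0.17 on the log2 scale (edgeR adjusted p = 0.0127, without replicate 2 or 3 0.105 to 0.356). Fcgbp, the IgG-Fc binding protein that is covalently bound in the gel, fell by 0.44 ± 0.17 (edgeR adjusted p = 0.0337, without replicate 2 or 3 0.164 to 0.459). A fit of the 12 controls alone also lost Muc13 (edgeR adjusted p = 0.0534) and Fcgbp (edgeR adjusted p = 0.076), and no filter lost Fcgbp (edgeR adjusted p = 0.0739). From proximal small intestine to colon Fcgbp fell by 0.68 ± 0.17 (edgeR adjusted p = 0.00111) and Muc13 by 0.86 ± 0.17 (edgeR adjusted p = 9.57e-05). Zg16 fell over that distance by 0.39 ± 0.15 (edgeR adjusted p = 0.0345, lost without replicate 1, 2 or 3, in a fit of the 12 controls alone and with no filter, at 0.0579 to 0.32).

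Of the 10 members, 6 were called from distal small intestine to colon, where 45% of all genes were called. From middle to distal 2 were called (9.97% of all genes), and from proximal to middle 1 (6.71%). The share of members called was above the share of all genes at the step from proximal small intestine to colon and close to it at the step from proximal to middle.

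Per kilobase of annotated exons, the order of the members in control tissue differed between the ends of the gut. In proximal small intestine ZG16, a lectin that binds Gram-positive bacteria, had the highest transcript level at 2025 ± 89.9 CPM per kb (SD, n = 3), ahead of Muc13 at 1252 ± 181 and Tff3 at 1069.9 ± 89.3. In chronic colon Zg16 at 1608 ± 153 and Clca1 at 1436 ± 363 led, and they did not differ beyond their spread. Muc13 at 715 ± 113 and Tff3 at 619 ± 79.5 followed, also within their spread of each other. Spdef, as a transcription factor, was low throughout at 5.12 ± 0.168 in proximal small intestine and 14.1 ± 2.6 in chronic colon. These per-kilobase levels come from a joint scaling of all 45 libraries, and Muc2 is left out because its longest complete coding model in the annotation spans only 1452 bases.

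The controls of the acute and the chronic colon did not start from the same levels. With all 45 libraries scaled together, Muc2 stood at 10294 ± 555 CPM (SD, n = 3) in acute and 1816 ± 464 in chronic controls, a ratio of 5.67. Spdef was 2.77 and Agr2 2.49 times higher in the acute controls, while Clca1 was 2.77 times higher in the chronic ones. For these 4 genes the libraries of the 2 experiments did not overlap. The experiment and the count table differ together here and cannot be told apart, so no test is given.

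At 6 h after the dose, the changes called among the goblet genes were rises, in the transcription factor Spdef and in Spink4 with both drugs and in Tff3 with imeglimin. With metformin 2 of the 10 members were called and with imeglimin 3, where 19.7% and 33.3% of all genes tested were called. The members' share therefore lay near that of all genes. The median log2 fold change of the 10 members was 0.37 with metformin and 0.25 with imeglimin, beside -0.04 and -0.03 over all genes. Both drugs were compared with the same 3 control libraries, and CPM values are from here on scaled within each table. Where colon groups or gut segments are said not to overlap, above or below, the share of all genes that did so is not given. Such separation only describes the values.

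Spdef read 78.3, 120.4 and 110.0 CPM in the controls, 152, 153 and 155 with metformin and 182, 202 and 214 with imeglimin. The 3 groups did not overlap, with imeglimin highest. The log2 fold change was 0.58 ± 0.14 with metformin (edgeR adjusted p = 0.0151) and 0.95 ± 0.14 with imeglimin (edgeR adjusted p = 0.000629). Both calls held in all 11 alternatives run for them, the lowest and highest adjusted p being 0.000431 and 0.0391 for metformin. Between the drugs Spdef differed by 0.38 ± 0.14, with imeglimin higher, which did not pass over all genes (edgeR adjusted p = 0.223, 95% interval 0.07 to 0.68).

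Spink4 read 244, 235 and 189 CPM in the controls, 285, 347 and 353 with metformin and 259, 378 and 441 with imeglimin, and neither drug group overlapped the controls. It rose by 0.56 ± 0.18 with metformin (edgeR adjusted p = 0.0479) and 0.69 ± 0.18 with imeglimin (edgeR adjusted p = 0.0125). The metformin call was lost without control 1, 2 or 3 or metformin 2 or 3 (edgeR adjusted p 0.0677 to 0.163), with no filter (edgeR adjusted p = 0.0617) and with the replicate block (edgeR adjusted p = 0.0668). The imeglimin call was lost without control 3 or imeglimin 3 (edgeR adjusted p 0.054 to 0.0601).

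Tff3 read 359.8, 385 and 393 CPM in the controls, 481, 583 and 513 with imeglimin and 591, 396 and 402 with metformin. All drug libraries lay above the controls, but metformin 2 and 3 by only a few CPM. It rose with imeglimin by 0.47 ± 0.15 (edgeR adjusted p = 0.0317), a call lost without any control or without imeglimin 2 or 3 (edgeR adjusted p 0.0667 to 0.124) and with the replicate block (edgeR adjusted p = 0.0541). The metformin value of 0.29 ± 0.15 did not pass (edgeR adjusted p = 0.197).

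Muc2 itself read 11759, 11326 and 12229 CPM in the controls, 14632, 15275 and 16487 with imeglimin and 14471, 15768 and 9732 with metformin. The imeglimin libraries lay above every control, and the metformin group held 2 libraries above and 1, replicate 3, below them. The imeglimin value of 0.39 ± 0.15 missed the threshold (edgeR adjusted p = 0.0695), and it passed with only the 2 groups in the fit (edgeR adjusted p = 0.00625) and in DESeq2 (adjusted p = 0.0212). The metformin value was 0.18 ± 0.15 (edgeR adjusted p = 0.437), and without metformin 3 it was 0.36 (edgeR adjusted p = 0.0343).

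The other members did not pass with either drug at 6 h. Retnlb was the most scattered, at 13.1, 18 and 44.1 CPM in the controls, 56.2, 5.94 and 122 with metformin and 53.7, 19.4 and 16.7 with imeglimin, and the 3 groups overlapped. Without metformin 2, which held the lowest value, the metformin difference was 1.83 (edgeR adjusted p = 0.0411). Clca1 with metformin stood at 0.39 ± 0.15 (edgeR adjusted p = 0.0839) and passed in DESeq2 (adjusted p = 0.0321) and without metformin 2 (log2 fold change 0.54, edgeR adjusted p = 0.00816). Zg16 also passed without that library, at 0.64 (edgeR adjusted p = 0.0195), and Muc13 with metformin passed without control 1, at 0.59 (edgeR adjusted p = 0.0163). Agr2 with imeglimin passed without imeglimin 1, at 0.35 (edgeR adjusted p = 0.0394). Fcgbp had 95% intervals of -0.18 to 0.22 for metformin and -0.22 to 0.19 for imeglimin.

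Summed over the 10 genes, the controls held 20908 to 22421 CPM, the metformin libraries 22583 to 28115 and the imeglimin libraries 25216 to 27652, and Muc2 was the highest of the 10 in every library. The 24 goblet cell markers that are not among the members summed to 3301 to 3543 CPM in the controls, 3177 to 3559.9 with metformin and 3251 to 3497 with imeglimin, and these ranges overlapped. Of the 20 markers tested, 1 rose and 0 fell with metformin, and 2 rose and 3 fell with imeglimin. Fibroblast markers, all 16 of them detected, summed to 1303 to 1588 CPM in the controls and 1028 to 1231 with imeglimin, and smooth muscle markers to 6767 to 8794 and 2521 to 9387 with metformin. Of 16 cycling cell markers, 8 rose and 0 fell with metformin, and 8 rose and 2 fell with imeglimin. The part of these cells in the changes of the goblet genes was not tested.

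**Figure D2:**
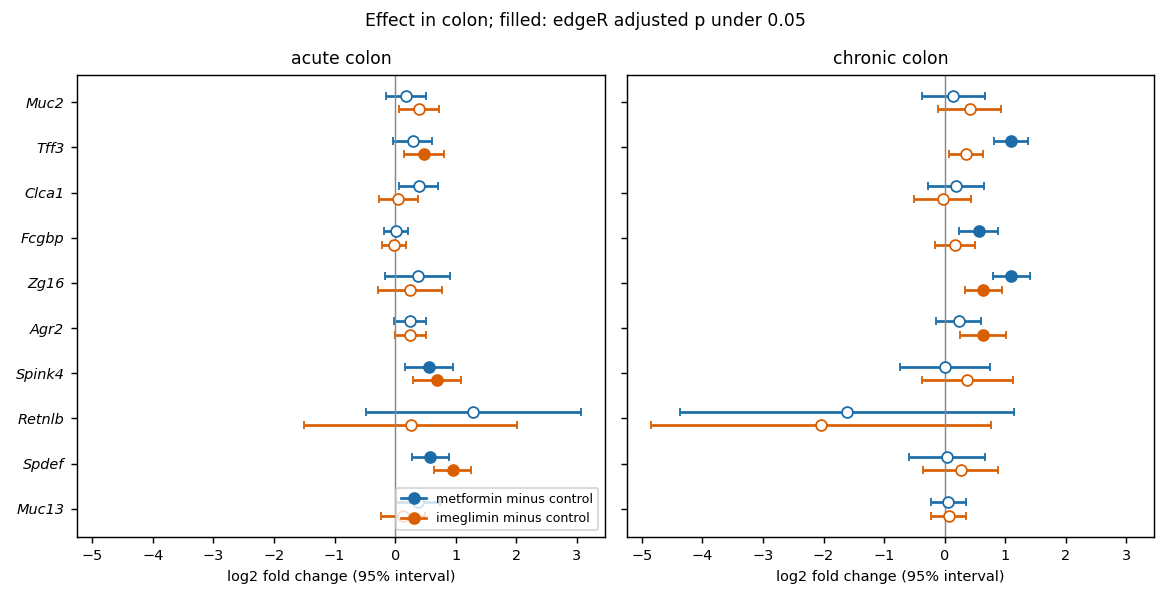
Log2 fold change against control with its 95% interval for the 10 genes in acute (left) and chronic (right) colon; filled points have an edgeR adjusted p under 0.05. Spdef and Spink4 were called in acute colon with both drugs, and Tff3, Zg16 and Fcgbp in chronic colon with metformin.

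After 4 weeks of drug in the water, the goblet genes called in colon were rises, in Tff3, Zg16 and Fcgbp with metformin and in Zg16 and Agr2 with imeglimin. These are 3 and 2 of the 10 members, where 19.7% and 13% of all genes were called. The 10 members had a median log2 fold change of 0.16 with metformin and 0.31 with imeglimin, beside -0.05 and -0.02 over all genes. No member was called lower in either comparison.

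Tff3 read 368, 299.7 and 374 CPM in the controls, 795, 726 and 702 with metformin and 367, 504 and 457 with imeglimin. The metformin libraries lay above both other groups, while imeglimin 1 lay within the controls. Tff3 rose 2.13-fold with metformin (1.09 ± 0.13, edgeR adjusted p = 0.000549), and all 11 alternatives kept the call, with adjusted p up to 0.00352. With imeglimin the value was 0.35 ± 0.12 (edgeR adjusted p = 0.0948), which passed without imeglimin 1 (edgeR adjusted p = 0.0341) and in DESeq2 (adjusted p = 0.0285).

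Zg16 read 2306, 2104 and 2496 CPM in the controls, 5423, 4827 and 4541 with metformin and 2827, 4259 and 3665 with imeglimin. The 3 groups did not overlap, with metformin highest. The rise was 2.14-fold with metformin (1.10 ± 0.14, edgeR adjusted p = 0.000802), held in all 11 alternatives with adjusted p up to 0.00571. It was 1.56-fold with imeglimin (0.64 ± 0.14, edgeR adjusted p = 0.0162), a call lost without control 1 or 2 (edgeR adjusted p 0.0545 to 0.0548).

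Fcgbp read 3294, 2775 and 3421 CPM in the controls and 5861, 4164 and 3944 with metformin, with no overlap, and 3655, 3786 and 3219.5 with imeglimin, which overlapped the controls. It rose with metformin by 0.56 ± 0.15 (edgeR adjusted p = 0.0248), a call lost without control 1, 2 or 3 (edgeR adjusted p 0.0533 to 0.0854). Agr2 read 501, 595 and 426 CPM in the controls, 819.7, 945 and 598 with imeglimin and 647, 611 and 527 with metformin. Every imeglimin library lay above every control, imeglimin 3 by a few CPM only. It rose with imeglimin by 0.63 ± 0.17 (edgeR adjusted p = 0.0367), a call lost without control 1 or 3 or imeglimin 1 or 2 (edgeR adjusted p 0.0879 to 0.131) and with only the 2 groups in the fit (edgeR adjusted p = 0.0565).

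The 2 members called at 6 h with both drugs gave no call here. Spdef read 30.7, 44.9 and 35.6 CPM in the controls, 52.1, 34 and 27.5 with metformin and 57.1, 48.1 and 28.1 with imeglimin. Spink4 read 92.1, 179 and 136 CPM in the controls, 176, 123 and 109 with metformin and 197, 237 and 93 with imeglimin. The groups overlapped for both genes. The 95% intervals of the Spdef change were -0.59 to 0.66 with metformin, which includes the value measured at 6 h, and -0.36 to 0.89 with imeglimin, which lies below it. For Spink4 they were -0.74 to 0.75 and -0.37 to 1.12, and both include the 6 h values. Muc2 stood at 0.14 ± 0.23 with metformin and 0.41 ± 0.23 with imeglimin (edgeR adjusted p = 0.701 and 0.282).

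Retnlb read 2.54, 16.1 and 87.7 CPM in the chronic colon controls, 24.9, 6.93 and 3.01 with metformin and 21.4, 1.32 and 3.21 with imeglimin. Each group spanned several-fold or more and the groups overlapped. The highest value came from control 3, the library with pancreatic transcripts. The differences of -1.62 ± 1.24 and -2.05 ± 1.26 did not pass (edgeR adjusted p = 0.382 and 0.325). Both rested on control 3: without it they were 0.32 with metformin and -0.11 with imeglimin (edgeR adjusted p = 0.89 and 0.974), so the metformin direction turned.

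Without control 3, Tff3 and Zg16 kept their calls with metformin. Goblet cell markers outside the members summed to 2588 to 3032 CPM in the chronic colon controls, 3133 to 3409 with metformin and 2815 to 3032 with imeglimin, so metformin lay above the controls without overlap. Of 22 tested, 3 rose and 1 fell with metformin, which lay near the 19.7% of all genes called in this comparison. Smooth muscle markers moved the other way, from 7479 to 7839.6 CPM in the controls to 5289 to 5943 with metformin, with 10 of 16 called lower, and fibroblast markers from 1301 to 1644 to 1015 to 1046, with 9 of 16 called lower. Absorptive colonocyte markers summed to 21777 to 24230.2 CPM in the controls and 26409 to 28636 with metformin. Of 16 cycling cell markers, 5 rose with metformin and 7 with imeglimin, and none fell. Their part in the rises of Tff3, Zg16, Fcgbp and Agr2 was not tested.

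In the small intestine no member was called for either drug in any segment. The share of all genes called was itself low there: 4.11% with metformin and 1.16% with imeglimin in proximal, 0.34% and 0.0279% in middle, and 0.625% and 0.0219% in distal small intestine. At an unadjusted p under 0.05, edgeR gave 0 and 1 of 9 members in proximal, 1 and 2 of 9 in middle, and 0 and 1 of 10 in distal small intestine. Over all genes these shares were 20.6% and 17.1%, 10.9% and 18%, and 16% and 10.3%. DESeq2 called 1, Spdef with imeglimin in middle small intestine (adjusted p = 0.0479).

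Spdef was below the controls in middle small intestine with both drugs, at 17, 15.5 and 16.6 CPM in the controls, 12.7, 14.2 and 10.6 with metformin and 11.1, 12.8 and 12.6 with imeglimin. Neither drug group overlapped the controls, a separation that 15.6% and 25.3% of all genes showed in these comparisons. The differences of -0.39 ± 0.13 and -0.43 ± 0.13 had edgeR adjusted p of 0.274 and 0.15. In distal small intestine Spdef read 23.8, 27.4 and 20.7 CPM in the controls and 19.9, 13.6 and 17 with imeglimin, a difference of -0.51 ± 0.16 (edgeR adjusted p = 0.372).

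Zg16 and Fcgbp in distal small intestine stood above the controls with metformin. Zg16 read 2050.2, 2619 and 2875 CPM in the controls and 3025, 3762 and 4337 with metformin. Fcgbp read 2869.6, 4142 and 4067 CPM in the controls and 4842, 4977 and 5835 with metformin. The groups did not overlap for either gene, as for 22.1% of all genes, and the differences of 0.56 ± 0.25 and 0.50 ± 0.27 did not pass (edgeR adjusted p = 0.316 and 0.418). In proximal small intestine Spink4 read 114, 79.5 and 166 CPM in the controls and 87.2, 98.7 and 87.6 with metformin. The metformin libraries lay within the range of the controls, and without control 2, the lowest, the difference of -0.62 passed (edgeR adjusted p = 0.0442).

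**Figure D3:**
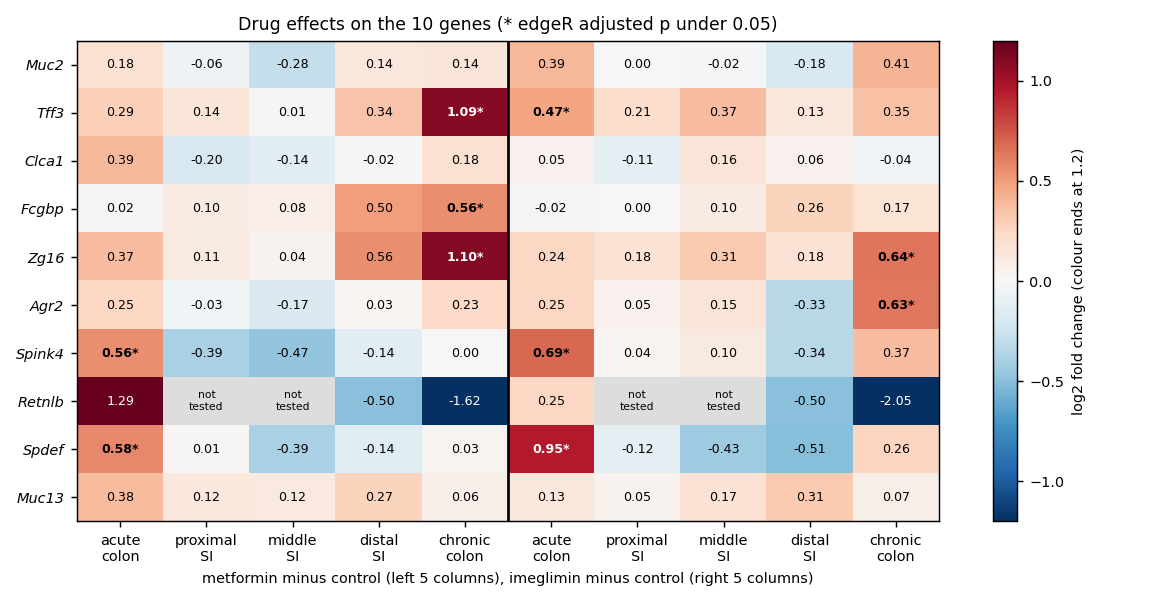
Log2 fold change against control of the 10 genes (rows) in the 5 tissues (columns), metformin left and imeglimin right; an asterisk marks an edgeR adjusted p under 0.05, and the colour scale ends at 1.2 in either direction. The marked cells lie in acute and chronic colon only, and Retnlb was not tested in proximal and middle small intestine.

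A test of the difference itself asked whether a drug's effect varied between the 4 chronic segments. Of the 10 members, 2 were called for metformin, Tff3 (edgeR adjusted p = 0.00714) and Zg16 (edgeR adjusted p = 0.00919), where 4.03% of all genes were called. For Tff3 the metformin values were 0.14 ± 0.09 in proximal, 0.01 ± 0.16 in middle, 0.34 ± 0.17 in distal small intestine and 1.09 ± 0.13 in colon. For Zg16 they were 0.11 ± 0.09, 0.04 ± 0.14, 0.56 ± 0.25 and 1.10 ± 0.14, so both were highest in colon. Neither call held when replicate 1, 2 or 3 was left out of every group, which removes 12 of the 36 libraries, and 0 members were then called. For imeglimin no member was called, where 2.96% of all genes were, and edgeR gave 2 at an unadjusted p under 0.05 (16.8% of all genes), Agr2 and Spdef (edgeR adjusted p = 0.102 and 0.286). DESeq2 called 1.

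Between acute and chronic colon, the metformin effect on Tff3 differed by 0.83 ± 0.21, larger in chronic colon (edgeR adjusted p = 0.0248), and no other member was called, where 6.22% of all genes were. The Tff3 call was lost without replicate 2 or 3 of every group (edgeR adjusted p 0.226 to 0.313). Fcgbp differed by 0.57 ± 0.18 (edgeR adjusted p = 0.0692) and passed in DESeq2 (adjusted p = 0.0196). The Spdef effect was smaller in chronic colon by its estimate with both drugs, -0.52 ± 0.33 with metformin and -0.66 ± 0.33 with imeglimin, and neither passed (edgeR adjusted p = 0.421 and 0.192). For imeglimin 0 members were called, where 16.3% of all genes were, and edgeR gave 0 at an unadjusted p under 0.05 (30.2% of all genes) and DESeq2 0 at the adjusted threshold. Dose, route, duration and count table differ together between the experiments and cannot be told apart.

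The 2 drugs were set against each other at the same time and at the same oral dose or drinking water concentration. They differed in 1 of 10 members in chronic colon and in 0 in the other 4 tissues. The share of all genes called was 0.611% in chronic and 0.645% in acute colon. It was 1.09% in proximal small intestine, 0% in the middle segment and 0.0494% in the distal one. Tff3 in chronic colon was lower with imeglimin than with metformin by 0.74 ± 0.12 on the log2 scale (edgeR adjusted p = 0.0402), and the 2 groups did not overlap. That call was lost without any metformin library or imeglimin 1 or 2 (edgeR adjusted p 0.0633 to 0.111), with the replicate block (edgeR adjusted p = 0.0649), with no filter (edgeR adjusted p = 0.0569) and with only the 2 groups (edgeR adjusted p = 0.0808).

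Zg16 in chronic colon was lower with imeglimin by its estimate of -0.46 ± 0.14 (edgeR adjusted p = 0.12, 95% interval -0.76 to -0.16) and passed in DESeq2 (adjusted p = 0.0147). For Fcgbp the interval was -0.71 to -0.07, for Agr2 0.03 to 0.78 with imeglimin higher, and for Muc2 -0.25 to 0.78. For Muc13 it was -0.28 to 0.29, for Clca1 -0.68 to 0.25, for Spdef -0.39 to 0.86 and for Spink4 -0.38 to 1.12. In acute colon edgeR gave 2 members at an unadjusted p under 0.05, Spdef and Clca1, where 16.4% of all genes passed, and the interval for Clca1 was -0.66 to -0.01, lower with imeglimin. In small intestine the unadjusted counts were 0 of 9 (proximal), 1 of 9 (middle) and 0 of 10 (distal), beside 17%, 13.2% and 8.03% of all genes, and DESeq2 called 0 members in each of these 4 tissues. In proximal small intestine Spink4 passed with only these 2 groups in the fit, 0.43 higher with imeglimin (edgeR adjusted p = 0.0256).

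Genes that act around the members were followed in 6 lists, which are set against the shares called and the medians of all genes given above. Among 18 regulators of secretory and epithelial fate, 3 rose and 2 fell with metformin at 6 h, and 5 rose and 2 fell with imeglimin. Klf4, a zinc finger factor needed for goblet cell maturation in colon, rose from 436 ± 63.2 to 714 ± 33.8 CPM with metformin (0.71 ± 0.12, edgeR adjusted p = 0.00288) and to 808 ± 90.1 with imeglimin (0.89 ± 0.12, edgeR adjusted p = 0.000474). Xbp1, the secretory pathway factor of the unfolded protein response, rose with imeglimin by 0.57 ± 0.09 (edgeR adjusted p = 0.00112). In chronic colon 2 rose and 2 fell with metformin, and 0 rose and 4 fell with imeglimin. The Notch receptor Notch1 fell from 49.8 ± 4.46 to 31.8 ± 2.72 CPM with metformin (edgeR adjusted p = 0.00229), and its ligand Dll1 fell from 22.6 ± 4.09 to 12.2 ± 2.5 CPM with imeglimin (edgeR adjusted p = 0.0117). Sox9, a factor of crypt progenitors, fell from 72.7 ± 11.9 to 43.6 ± 14.2 CPM with metformin (edgeR adjusted p = 0.0339), and the Notch ligand Dll4 rose from 14.9 ± 2.77 to 28.2 ± 1.76 CPM in distal small intestine with metformin (edgeR adjusted p = 0.0466). The median log2 fold change of the list was 0.03 with metformin and 0.16 with imeglimin at 6 h, and -0.01 and 0.03 in chronic colon.

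Of the enzymes that O-glycosylate and sulfate mucins, 34 of 35 were tested in acute colon. With metformin 3 rose and 4 fell there, and with imeglimin 3 rose and 8 fell. In chronic colon 5 of 35 rose and 4 fell with metformin, and 8 rose and 2 fell with imeglimin. Gcnt1, a core 2 branching transferase, fell from 117 ± 14.4 to 27.9 ± 3 CPM with metformin in chronic colon (-2.07 ± 0.18, edgeR adjusted p = 0.000201) and from 31.1 ± 8.26 to 7.63 ± 1.42 CPM with imeglimin in acute colon (-2.03 ± 0.21, edgeR adjusted p = 8.53e-05). Slc26a2, a sulfate transporter, rose from 962 ± 117 to 1737 ± 194 CPM with metformin in chronic colon (edgeR adjusted p = 0.00158). Galnt7, which adds N-acetylgalactosamine, fell from 228 ± 45.2 to 139 ± 5.1 CPM with imeglimin at 6 h (edgeR adjusted p = 0.00342). Gcnt4 fell from 24.4 ± 1.85 to 11.4 ± 3.57 CPM with metformin at 6 h (edgeR adjusted p = 0.00517) and rose from 2.31 ± 0.843 to 5.05 ± 1.05 CPM with imeglimin in chronic colon (edgeR adjusted p = 0.0241). The median log2 fold change of the list was -0.01 with metformin and -0.11 with imeglimin at 6 h, and 0.11 and 0.24 in chronic colon.

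Among 26 genes of mucin folding and granule release, 6 rose and 2 fell with metformin at 6 h, and 6 rose and 3 fell with imeglimin. Hspa5, the main chaperone of the endoplasmic reticulum in all secretory cells, rose from 288 ± 34.3 to 509 ± 65.8 CPM with metformin (edgeR adjusted p = 0.00118) and to 585 ± 45.7 with imeglimin (edgeR adjusted p = 0.000203). Creld2, a stress-induced protein of the same compartment, rose from 18.9 ± 0.607 to 37 ± 3.88 CPM with metformin and to 47.1 ± 4.05 with imeglimin (edgeR adjusted p = 0.000232 and 2.32e-05). These genes are expressed in other cells as well as in goblet cells. In chronic colon 4 rose and 1 fell with metformin, and 8 rose and 1 fell with imeglimin. The median log2 fold change of the list was 0.16 with metformin and 0.08 with imeglimin at 6 h, and 0.12 and 0.22 in chronic colon.

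Of the mucins and mucin-like genes outside the members, 9 of 15 were tested in acute and 8 in chronic colon. Cdhr5, a mucin-like protocadherin of microvilli, was the 1 called in chronic colon with either drug, rising from 675 ± 33.9 to 1028 ± 44.5 CPM with metformin (edgeR adjusted p = 0.00198) and to 912 ± 111 with imeglimin (edgeR adjusted p = 0.0157). At 6 h 0 rose and 0 fell with metformin, and 1 rose and 0 fell with imeglimin. These mucins had a median log2 fold change of 0.19 with metformin and 0.16 with imeglimin at 6 h, and 0.20 and 0.31 in chronic colon.

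Of 20 other genes tied to the mucus layer and tested in chronic colon, 4 rose and 2 fell with metformin, and 0 rose and 1 fell with imeglimin. At 6 h, of 21 tested, 2 rose and 2 fell with metformin, and 3 rose and 4 fell with imeglimin. Slpi, a secreted protease inhibitor, rose from 1.5 ± 0.758 to 12.3 ± 3.84 CPM with metformin in chronic colon (edgeR adjusted p = 0.0032). Dmbt1, a scavenger receptor protein of mucus, fell from 2521 ± 291 to 1667 ± 108 CPM in the same comparison (edgeR adjusted p = 0.00268). With imeglimin at 6 h, Nlrp6, an inflammasome sensor, fell by 0.42 ± 0.10 on the log2 scale (edgeR adjusted p = 0.00731), and Mep1a, a metalloprotease that cleaves MUC2, fell by 0.46 ± 0.11 (edgeR adjusted p = 0.00755). The genes of this list had a median log2 fold change of 0.12 with metformin and 0.03 with imeglimin at 6 h, and -0.0044 and 0.08 in chronic colon.

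Among cytokine genes known to act on goblet cells, 14 of 20 were tested in acute and 13 in chronic colon. At 6 h 1 rose and 1 fell with metformin, and 2 rose and 1 fell with imeglimin. In chronic colon 1 rose and 1 fell with metformin, and 1 rose and 1 fell with imeglimin. The interleukin-22 receptor subunit Il22ra1 fell from 58.4 ± 10.9 to 29.6 ± 3.61 CPM with metformin (edgeR adjusted p = 0.00121) and to 36.1 ± 4.27 with imeglimin (edgeR adjusted p = 0.00417) at 6 h. Socs1, an inhibitor of cytokine signalling, rose from 1.73 ± 0.413 to 5.5 ± 1.37 CPM with imeglimin (edgeR adjusted p = 0.00096), and Il10rb rose from 75 ± 1.95 to 102 ± 7.72 CPM with metformin in chronic colon (edgeR adjusted p = 0.00553). In the small intestine at most 3 genes of any of these 6 lists were called in a comparison of a drug with control. The share of all genes called there ran from 0.0219% to 4.11%, and 3 calls would lie above these shares even in the longest list. The median log2 fold change of the cytokine list was -0.03 with metformin and -0.21 with imeglimin at 6 h, and -0.18 and -0.01 in chronic colon.

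The members did not run as 1 block across the 15 bulk groups. On log2 CPM of the group means, Muc2 ran with Spdef (r = 0.979), Agr2 (r = 0.946) and Retnlb (r = 0.849). Tff3, Fcgbp, Zg16 and Muc13 ran together, with Fcgbp against Muc13 at 0.922 and against Zg16 at 0.848, and they ran against Muc2, Fcgbp at -0.884. Spink4 stood between, at 0.572 with Muc2 and 0.117 with Tff3. These are descriptions over 15 group means from 5 tables, and the groups differ by gut segment and by experiment.

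Among 11329 genes outside the members, those most like Muc2 over the 15 group means were Mgll (r = 0.984), Tspan4 (r = 0.984) and Chrnb4 (r = 0.983). Spdef was most like Impdh1 (r = 0.99), Mgll (r = 0.985) and Slc1a4 (r = 0.985), and Retnlb most like Isg20 (r = 0.988), Hgfac (r = 0.987) and Pqlc1 (r = 0.986). Agr2 was most like Galnt12 (r = 0.988), which adds the first sugar of mucin O-glycans, and Clca1 most like Saa1, a serum amyloid gene. For the rest they were Ostf1 (r = 0.937) for Tff3, Ccng2 (r = 0.977) for Fcgbp, Bfsp1 (r = 0.951) for Zg16, Gm4617 (r = 0.958) for Spink4 and Pde4dip (r = 0.972) for Muc13.

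In single cells of colon, pooled over all matrices, goblet-like clusters held most UMIs of 7 of the 10 members. For Agr2, Spink4 and Muc13 the pooled share was under 50%. The 3 matrices, named CT, Ime and Met, held 8001, 4732 and 12928 barcodes, of which 7995, 4724 and 12918 with at least 500 UMIs were kept. All 3 belong to 1 sample whose label lists every treatment, so their link to control, imeglimin and metformin rests on the deposited names and no test was made. No full barcode was shared, and 625 to 1686 first parts of 16 bases were shared between pairs of matrices. Median depth was 2341 UMIs in CT, 1354.5 in Ime and 5496.5 in Met. Intervals given here are exact 95% Poisson intervals and cover counting error only, since PCR and cell sampling add to it.

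Cells were clustered without the 10 members, and 3 of 35 clusters were called goblet-like from 24 other goblet markers. Cluster 4, of 1671 cells, was led by Mptx1, Reg4 and Ccn3. Cluster 9, of 1134 cells, was led by Spink1, Slpi and Slfn4, and its 10 leading genes held 1 goblet marker, Bcas1. The others included stress and immune genes (Slpi, Slfn4 and Ido1) and genes known from surface and absorptive epithelium (Cldn4, Scnn1b, Vill and P2ry4). Its name therefore rests on 8 goblet markers among its 50 leading genes. Cluster 20, of 573 cells, was led by Sval1, Ang4 and Scin, and its cells had the highest median depth of the goblet-like clusters in each matrix. Together they held 13.2% of the cells, 24.6% of all UMIs, 80.6% of the Zg16 UMIs, 80.6% of Fcgbp, 79.7% of Clca1, 78.2% of Tff3, 68% of Muc2, 65.5% of Retnlb and 59.1% of Spdef. The share was lower for Agr2 (48.4%), Spink4 (44.7%) and Muc13 (30.7%). By matrix, in CT, Ime and Met, it was 53.1%, 53.8% and 47.1% for Agr2 and 49.1%, 53.4% and 43.5% for Spink4. Over the 3 matrices, the single cluster with the most Agr2 and Spink4 UMIs was cluster 19, called cycling cell-like. It held 26.8% of Agr2 and 38.8% of Spink4. Reg4 and Ccn3 were among the 10 leading genes of both cluster 19 and cluster 4, so the lower shares of Agr2 and Spink4 depend on how cluster 19 was named.

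The goblet-like clusters carried the members in different proportions. Cluster 4 had the highest levels of Muc2 (77649 UMI CPM, UMI counts scaled in the same unit), Spink4 (11577), Agr2 (9192), Spdef (815) and Retnlb (234), except that in Met alone Retnlb was higher in cluster 9 (76.8 against 55.6). For a second measure, each cell with at least 1000 UMIs was thinned to 1000, and cells below that were left out. Every cell then weighs the same, while in the pooled levels deep cells weigh most. On this measure Muc2 over the 3 matrices was instead higher in cluster 9 (69438) than in cluster 4 (66105). That turn came from Met (83200 against 78021). In CT and Ime thinned Muc2 stayed higher in cluster 4 (62263 against 57487, and 51325 against 47479). The cluster that was highest over the 3 matrices stayed the same for Spink4, Agr2, Spdef, Retnlb, Zg16, Fcgbp, Clca1 and Tff3. Cluster 9 had the highest levels of Zg16 (65948), Fcgbp (35684), Clca1 (24671) and Tff3 (20913). In cluster 9 Spink4 stood at 1048, Agr2 at 1588 and Spdef at 163, and in cluster 4 Tff3 stood at 7698 and Zg16 at 23497. Spdef and Spink4, the 2 members called at 6 h with both drugs in bulk colon, were thus highest in cluster 4. Tff3, Zg16 and Fcgbp, the 3 called with metformin in chronic bulk colon, were highest in cluster 9. Not every call followed this split. Tff3 was also called at 6 h with imeglimin, and Agr2, highest in cluster 4, was called in chronic colon with imeglimin.

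Outside these clusters, the cycling-like cluster 19, led by Reg4 and histone genes, held Muc2 at 26373 UMI CPM, Spink4 at 5990.4 and Agr2 at 4101. Its cells were deep, with a median of 44194 UMIs in Met, and doublets were not removed because the caller marked under 0.5% of cells in each matrix. Muc13 was highest in the absorptive colonocyte-like cluster 1, at 8567, close to the 8478 of cluster 9. In the unnamed cluster 33, led by Tgm4 and Pbsn, Spdef stood at 179, and 89 of its 102 cells came from CT.

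UMIs of the members were also found in cells that should lack them, and more often in Met. A Muc2 UMI was found in 55.6% of B and plasma cell-like cells in CT, 27.8% in Ime and 96.5% in Met, at median depths of 924, 809 and 1913 UMIs. In goblet-like cells it was found in 99.5% in Ime and in every cell of the other matrices, at medians of 5086 UMIs in CT, 2408 in Ime and 14814 in Met. With the cells of at least 1000 UMIs thinned to 1000, the share in B and plasma cell-like cells was still 50%, 25.6% and 83.3%. Cells below 1000 UMIs were left out of these shares, by the medians above most of those in CT and Ime. Without thinning, Spdef had a UMI in 84.1%, 73.4% and 85.3% of goblet-like cells and in 4.69%, 2.69% and 5.88% of B and plasma cell-like cells.

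Within cluster 9, Zg16 stood at 35244 (interval 35044 to 35444) UMI CPM in CT, 33198 (interval 32889.8 to 33507) in Ime and 72169 (interval 72062 to 72278) in Met. Fcgbp stood at 23482 (interval 23319.6 to 23646), 16305 (interval 16089 to 16522) and 38516 (interval 38437 to 38595). Tff3 lay between 19298 and 21072 in the 3 matrices. The median depth of these cells was 5400.0 UMIs in CT, 3880.5 in Ime and 22957 in Met. With the cells of at least 1000 UMIs thinned to 1000, Zg16 stood at 50039 UMI CPM in CT, 54182 in Ime and 82689.5 in Met. Fcgbp then stood at 33181, 27469 and 47164, and Tff3 at 28647, 31401 and 24182. Zg16 and Fcgbp were thus highest in the matrix named Met both ways, while Tff3 was highest there before and lowest after thinning. Thinned values weigh every cell alike and the others weigh deep cells most. The parts of weighting and depth in this turn were not tested apart. Zg16 in cells that should lack it was also highest in Met, with a UMI in 95.5% of B and plasma cell-like cells against 37.9% in CT.

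Within cluster 4, Spdef stood at 1188 (interval 1145 to 1233) UMI CPM in CT, 1388 (interval 1308 to 1472) in Ime and 615 (interval 596 to 634) in Met. Retnlb stood at 389 (interval 364 to 415), 1266 (interval 1189.8 to 1347) and 55.6 (interval 50.1 to 61.5), so both were lowest in Met and highest in Ime. Agr2 was at 7598, 8714 and 9811, and Spink4 at 8370.2, 10607 and 12824, both highest in Met. In CT, Ime and Met, 543, 320 and 572 of the 600, 443 and 628 cells had at least 1000 UMIs. With these thinned to 1000, Agr2 was at 6979.7, 8762 and 7913 and Spink4 at 7037, 9794 and 9243, so that both were then highest in Ime. Spdef was then at 1300, 1394 and 699 and Retnlb at 343, 1303 and 69.9, so both stayed highest in Ime and lowest in Met. Retnlb was sparse at this depth, with a UMI in 14.5%, 30.6% and 4.37% of the cells. With 1 matrix each, differences between matrices and between treatments cannot be told apart.

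**Figure D4:**
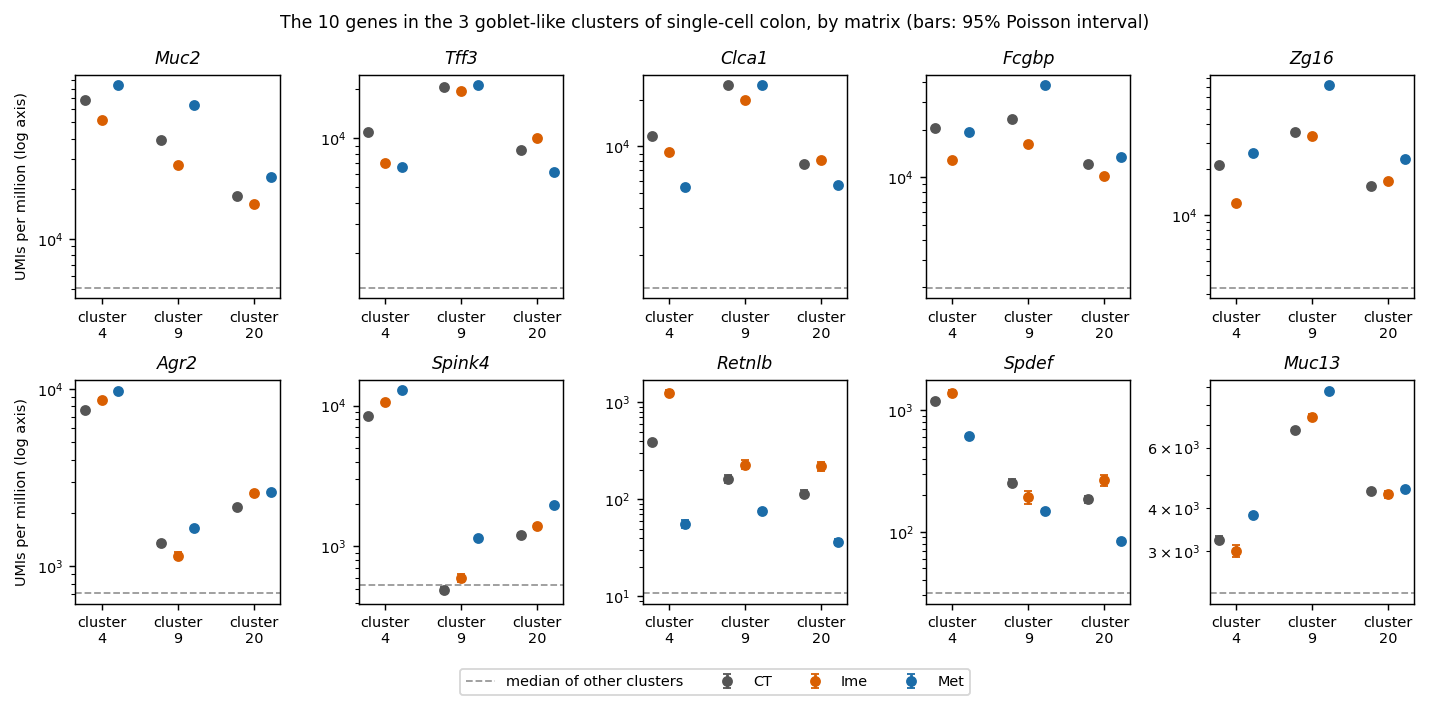
UMI CPM (log axis) of the 10 genes in the 3 goblet-like clusters, by matrix (CT, Ime, Met), with exact 95% Poisson intervals that are mostly smaller than the points; the dashed line is the median of the other clusters. Spdef, Agr2 and Spink4 are highest in cluster 4 and Tff3, Clca1 and Zg16 in cluster 9 in every matrix.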

How the data were processed

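Bulk RNA was made into stranded mRNA libraries, and the authors deposited raw read counts per gene symbol in 5 tables, 1 per tissue and experiment. FastQC, Trimmomatic, HISAT2, StringTie and Cell Ranger are named without roles per the submitters' processing notes, with builds mm10 and GRCm39. Cell Ranger 9.0.0 made the UMI counts of the 3 single-cell matrices, per the file headers. The sources used here do not say whether counting used strand. All count columns were used, 0 being left over, and libraries were grouped by their labels.

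Each table was tested with edgeR 4.0.16 in R 4.3.3 (quasi-likelihood, TMM, filterByExpr, 3 groups sharing the spread), with Benjamini-Hochberg adjustment over all genes tested. Differences between segments and between effects were tested in joint fits of 36 or 18 libraries. The alternatives were DESeq2 1.42.0, RLE scaling, no filter, only the groups compared, a replicate block and leaving out each replicate. The test script was checked on simulated data. Single cells with at least 500 UMIs were clustered with scanpy 1.11.5 and leidenalg 0.10.2 at resolution 1 without the 10 genes. The 10 genes and all lists were chosen with earlier results of these data known. From each pathway list, the text names genes with the smallest adjusted p or, for some lists, the largest change among those called.

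The batch number in the labels equals the replicate number. Same-numbered libraries had mean correlations of deviations of -0.0056 (acute colon), 0.0055 (proximal segment), -0.100 (middle segment), -0.132 (distal segment) and 0.0687 (chronic colon). Any 2 libraries of a group differed by a chi-square per gene of at least 13.9, so none was a copy of another.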

Additional observations from a re-analysis of the deposited data

Results flagged for a closer look

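The metformin effect on Tff3 differed between the 4 chronic segments in an edgeR test of the difference itself (adjusted p = 0.00714), with its highest value in colon. The same test gave an edgeR adjusted p of 0.00919 for Zg16. Both calls were lost when the libraries of any 1 replicate number were left out. The metformin effect on Tff3 also differed between acute and chronic colon (edgeR adjusted p = 0.0248), a call lost without replicate 2 or 3.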

How the results depend on the processing

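RLE scaling moved no call among the 10 genes, and no value changed direction in any alternative where a call was made. The number of the 10 genes called changed by over 1.5 times, or from or to 0, as follows. Smaller changes of this number are not listed here. With metformin in acute colon it was 2, but 1 with no filter and 1 with the replicate block, and 1 to 4 without single libraries. With imeglimin in acute colon it was 3, and 1 to 4 without single libraries. With imeglimin in chronic colon it was 2, but 1 with only the 2 groups, and 0 to 2 without single libraries. Between the drugs in chronic colon it was 1, but 0 with no filter, 0 with the replicate block, 0 with only the 2 groups and 2 in DESeq2, and 0 to 1 without single libraries. With metformin in proximal small intestine it was 0, and 0 to 1 without single libraries. Between the drugs there it was 0, but 1 with only the 2 groups. With imeglimin in middle small intestine it was 0, but 1 in DESeq2. From proximal to middle segment it was 1, but 2 with the replicate block and 2 in DESeq2, and 0 to 0 without single replicate numbers. From middle to distal it was 2, and 0 to 1 without them, and from distal to colon 6, and 3 to 6. For the metformin effect between segments it was 2, and 0 to 0 without them, and between experiments 1, 2 in DESeq2, and 0 to 1. For the imeglimin effect between segments it was 0, but 1 in DESeq2. The cause of these changes was not tested, and the block moved no other count of calls by over 1.5 times, though it ended the call of Tff3 with imeglimin in acute colon. Counts over all genes by edgeR and DESeq2 differed by over 1.5 times in the small intestine and between the drugs. For metformin they were 710 and 1495 in proximal, 61 and 454 in middle and 114 and 856 in distal segments, and for imeglimin 200 and 809, 5 and 885 and 4 and 250. Between the drugs they were 189 and 776, 0 and 281 and 9 and 187 there, 118 and 731 in acute colon and 114 and 1223 in chronic colon. In the single cells, keeping only cells with at least 1000 UMIs moved 21 of 30 levels beyond counting error, and thinning moved 29. Thinning used the same cells and weighed each of them alike. The doublet alternative was not run, since the caller marked 1, 4 and 3 cells. With 3 libraries a group, small changes of low genes such as Retnlb were not detectable.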
